A study of Mus musculus with 18 samples.

Results

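GFP-positive and GFP-negative cells of days 5 and 6 of embryoid body differentiation were compared on 8 of the series' 18 Affymetrix mouse arrays, 4 of each fraction. They were chosen by their titles, and each GFP-positive array was paired with the GFP-negative array of the same day and batch, which gave 4 pairs. The cells were mouse embryonic stem cells of line D3 that carried GFP, a green fluorescent protein, behind an Nkx2-5 enhancer and a minimal Hsp68 promoter, with a co-transfected hygromycin resistance gene. Resistant clones were picked for GFP in beating areas, and the labels do not say how many clones gave the arrays. They had been kept on embryonic fibroblast feeders with leukemia inhibitory factor, were freed of feeders, and were differentiated in hanging droplets without the factor and then in suspension with ascorbic acid. The 4 groups were GFP-positive day 5, GFP-positive day 6, GFP-negative day 5 and GFP-negative day 6 cells, with 1 array of batch 1 and 1 of batch 2 each. All 4 groups carried the same transgene, and what set the fractions apart was its fluorescence in the sort. The other arrays held the same fractions on days 7 and 8 (8 arrays) and antibiotic-selected cardiomyocytes (2 arrays). The cardiomyocyte arrays served only to choose probe sets and to set the value added to signals and the lowest signal for testing.

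Nkx2-5 is a homeobox transcription factor that marks cells committed to the heart in the early embryo, and its enhancers are active before beating starts. In the mouse embryo, epiblast cells lose the pluripotency network, pass through the primitive streak under Nodal, WNT and BMP signals, and form mesoderm that carries the VEGF receptor Kdr. Etv2, with other ETS, GATA and Sox factors, then turns part of that mesoderm into endothelium and blood, while Nkx2-5, Gata4 and Tbx5 act in the part that becomes heart muscle. The comparison asked how the cells with an active enhancer differed from their neighbours at the 2 earliest times sampled.

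Values were MAS5 signals, and differences were taken between values of log2(signal + 6.8), so that those of dim genes come out too small. They were averaged over the 4 pairs and carry the standard error (SE) of a limma fit with the pair as a block. The 4 values of a fraction are given in the order day 5 batch 1, day 5 batch 2, day 6 batch 1, day 6 batch 2. Whether the batches were separate cultures is not given in the labels, and p-values therefore rest on a spread between arrays that may be technical. An exact sign-flip test over 4 pairs cannot go below p = 0.125 (two-sided) and was not used. In bulk RNA, fewer cells of a type and less RNA per cell cannot be told apart. The number of arrays limits the precision.

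Median signals of the 8 arrays lay between 18.2 and 23.3, and the 3' to 5' signal ratio of Gapdh, a measure of RNA quality, between 1.17 and 1.57 in GFP-positive cells and between 1.13 and 1.35 in GFP-negative cells. The 2 arrays of a pair correlated across genes with r between 0.959 and 0.976. The day 5 pair of batch 2 stood apart from the other 3 pairs in markers of several cell types. The summed signal of 4 red cell markers was 231 in its GFP-positive and 164 in its GFP-negative array, against 11119.7 or more in the GFP-positive arrays and 11957 or more in the GFP-negative arrays of the other pairs. The summed signal of 6 markers of undifferentiated cells was 439 in its GFP-positive and 2658 in its GFP-negative array, against at most 127 in the other GFP-positive arrays and 1043 in the other GFP-negative arrays. The part of this pair in the results was not tested beyond the values given without it.

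Of 11977 genes tested, 95 differed between the fractions at an adjusted p under 0.05, which is 0.793% of the genes. In GFP-positive cells 52 were higher (0.434%) and 43 lower (0.359%), and the median difference of all genes was -0.02. By at least 2-fold, 36 were higher and 39 lower. All 52 higher genes had the same sign in 4 of 4 pairs, as did 42 of the 43 lower genes, the exception being L1td1, which was lower in 3 pairs (named for that after its values were seen). Among all tested genes 9.76% were higher and 12.0% lower in 4 of 4 pairs. The called genes were chosen on the mean of these same differences, which favours 1 sign, so this is no separate support. For 20 of the higher and 20 of the lower genes the 4 GFP-positive signals did not overlap the 4 GFP-negative signals, a state shared by 1.34% of tested genes in the higher and 2.05% in the lower direction. The calls depended on the pairing and on every pair: the count was 13 without the pair as a block (5 higher and 8 lower), 55 without the day 5 pair of batch 1, 10 without the day 5 pair of batch 2, 6 without the day 6 pair of batch 1 and 8 without the day 6 pair of batch 2. Equal array medians, a scaling that moved the median difference of all genes to 0.08, gave 186 higher and 87 lower genes, and quantile normalization 70 higher and 35 lower. With the 8 arrays of days 5 and 6 alone, 69 genes were higher and 26 lower.

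**Figure D1:**
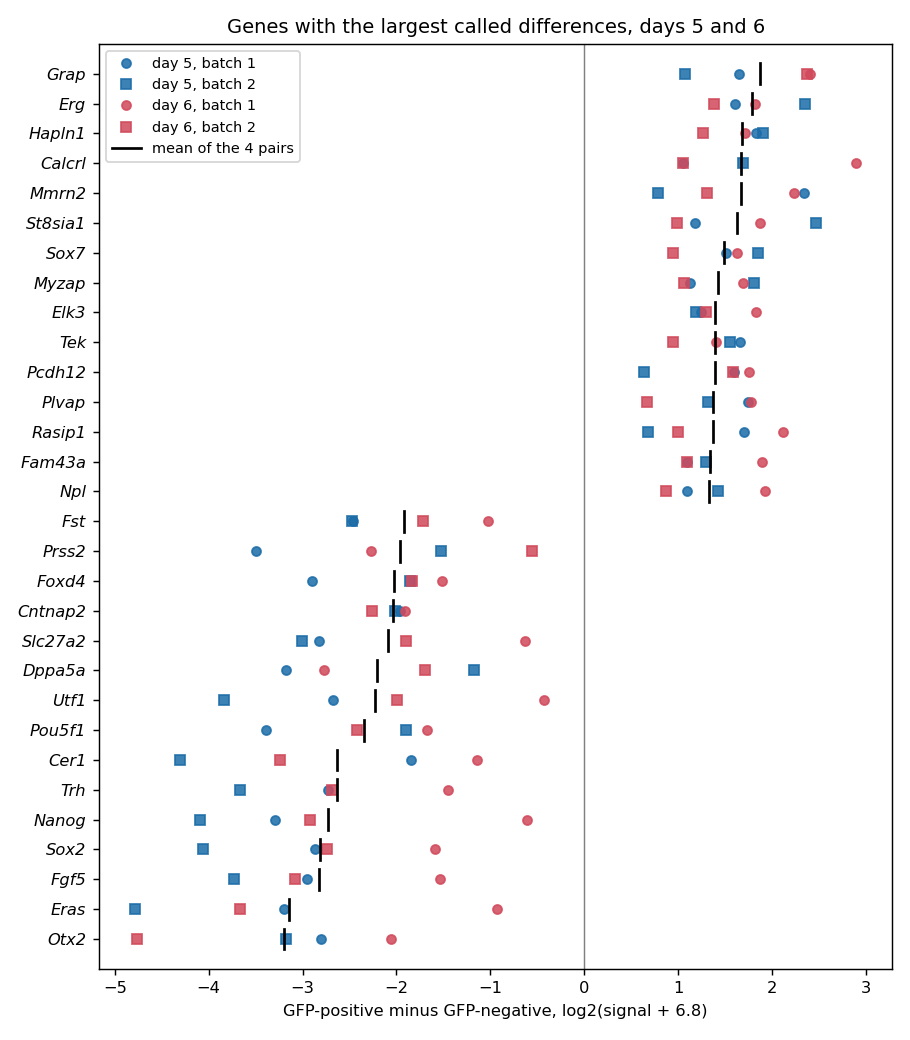
Differences in each of the 4 pairs (GFP-positive minus GFP-negative, log2(signal + 6.8), horizontal axis) for the 15 most raised and 15 most lowered called genes with the same sign in every pair, with a vertical tick at the mean. The lowered genes in the bottom block reach a mean of -3.20 (Otx2), many with their smallest difference in the day 6 pair of batch 1, and the raised genes in the top block reach 1.87 for Grap, whose size depends on the offset.

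Pluripotency genes were mostly lower in GFP-positive cells. Of 24 tested members of a list of 25 pluripotency genes, 8 fell, 0 rose and 16 did not pass, beside 0.359% of all tested genes that fell. The median was -0.65 (-0.75 in batch 1 and -0.88 in batch 2) beside -0.02 for all genes. Of the 24, 11 were lower in 4 of 4 pairs, beside 12.0% of all tested genes, and 5 had differences above 0, the highest at 0.49. Sox2, the partner of Oct4 in the pluripotency network, had signals of 65.3, 25.3, 66.0 and 22.6 on GFP-positive arrays and 518, 529, 212 and 189 on GFP-negative arrays. The fractions did not overlap, and the gap was wider on day 5. Sox2 fell by 2.81 ± 0.27 (adjusted p = 0.0058). Pou5f1, which encodes Oct4, had signals of 15.7, 306, 10.4 and 18.2 on GFP-positive arrays and 229.6, 1161, 48.3 and 127 on GFP-negative arrays. The GFP-positive array of day 5 batch 2 exceeded 3 GFP-negative arrays, so the fractions overlapped, while each pair had the lower value in GFP-positive cells. Pou5f1 fell by 2.35 ± 0.31 (adjusted p = 0.0158).

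Nanog, the homeobox factor of the naive state, had signals of 5.6, 30.3, 8.0 and 4.3 on GFP-positive arrays and 115, 625, 15.7 and 77.5 on GFP-negative arrays. On day 6 of batch 1 both of its values were low, and that pair had the smallest difference. Nanog fell by 2.73 ± 0.46 (adjusted p = 0.0317). Utf1, a chromatin protein of pluripotent cells, had signals of 9.6, 5.1, 8.4 and 7.0 on GFP-positive arrays and 98.3, 164, 13.6 and 48.0 on GFP-negative arrays. It was dim in every GFP-positive array and reached the lowest signal for testing on GFP-negative arrays alone. The fractions did not overlap. Utf1 fell by 2.23 ± 0.32 (adjusted p = 0.0165). Eras, a Ras protein of embryonic stem cells, fell by 3.14 ± 0.42 (adjusted p = 0.0158) and Zfp42, the zinc finger protein Rex1, by 1.67 ± 0.24 (adjusted p = 0.0165). Dppa5a, an RNA-binding protein of pluripotent cells, still had a signal of 1201 in the GFP-positive array of day 5 batch 2, against 2717 in its GFP-negative partner, and fell by 2.21 ± 0.30 (adjusted p = 0.0161). Prdm14, a regulator of naive and germ cells, fell by 1.89 ± 0.34 (adjusted p = 0.0396). Like Utf1 it was tested through GFP-negative arrays alone, with GFP-positive signals of at most 6.9. With the lowest signal for testing required on 4 of the 8 arrays, 18 members of the list were tested. Of these 6 fell, and the median was -0.39. Without the pair as a block 3 members of the list fell (Sox2, Utf1 and Eras), without the day 5 pair of batch 2 also 3, and without the day 6 pair of batch 2 none, against 1085 genes of all kinds at an unadjusted p under 0.05 in limma.

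Promoters of 3 of these genes are shown because each holds an octamer core, the letters ATGCAAA on either strand that Oct4 is known to bind. They span 250 bases before to 50 bases after a RefSeq start site in GRCm38.p6, and capitals mark the octamer core and, in Nanog, the adjoining Sox motif CATTGT, both of which run on the strand opposite to that gene. Nanog lies at chr6:122707239-122707538 on the plus strand, Sox2 at chr3:34649745-34650044 on the plus strand and Zfp42 at chr8:43306960-43307259 on the minus strand.
Nanog: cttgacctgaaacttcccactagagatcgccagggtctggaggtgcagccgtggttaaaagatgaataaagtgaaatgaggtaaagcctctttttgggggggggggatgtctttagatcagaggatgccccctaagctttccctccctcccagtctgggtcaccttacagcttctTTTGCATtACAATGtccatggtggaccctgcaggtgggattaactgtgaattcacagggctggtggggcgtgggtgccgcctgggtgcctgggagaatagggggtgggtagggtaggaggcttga
Sox2: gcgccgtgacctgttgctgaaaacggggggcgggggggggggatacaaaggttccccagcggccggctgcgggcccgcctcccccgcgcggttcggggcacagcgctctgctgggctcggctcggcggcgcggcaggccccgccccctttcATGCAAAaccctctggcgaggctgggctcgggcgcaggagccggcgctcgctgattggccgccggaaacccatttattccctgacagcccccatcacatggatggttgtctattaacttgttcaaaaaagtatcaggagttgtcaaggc
Zfp42: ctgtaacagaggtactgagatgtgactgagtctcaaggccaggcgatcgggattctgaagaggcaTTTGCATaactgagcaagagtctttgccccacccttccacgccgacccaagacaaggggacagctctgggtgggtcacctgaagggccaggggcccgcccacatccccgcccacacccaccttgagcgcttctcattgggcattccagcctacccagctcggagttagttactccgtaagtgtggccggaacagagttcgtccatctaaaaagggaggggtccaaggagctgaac
Relative to the start site, the octamer core began at -75 in this window of Nanog, where the Sox motif followed at -67, at -99 in Sox2 and at -185 in Zfp42. Of the 43 lower genes 37 had a promoter in the table, and the octamer core was found in 6 of them, or 16.2% (Nanog, Sox2, Zfp42, Pim2, Il18 and 1700019D03Rik). It was found in 5.26% of the 38 higher genes with a promoter, 4.0% of the 9686 tested genes with one and 5.24% of all 27025 genes with one. Counted by single windows, it was in 4.63% of all 32851. The Sox motif was found in 18.9% of the lower genes with a promoter, 15.8% of the higher genes, 8.97% of the tested genes and 14.3% of all genes. A gene counted as holding a motif if any of its windows did, on either strand, and lower genes had 1.49 windows each against 1.28 for tested genes. Matches of different motifs did not overlap in the windows shown, and a second Nanog window of the table, from a later start site, holds the same letters at -151 and -143. A match describes the letters and is no evidence of binding.

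Genes of the epiblast, the layer that forms the embryo proper, included 4 that were lower. Of 15 tested members of a list of 16, 4 fell, 0 rose and 11 did not pass, beside 0.359% of all tested genes that fell. The median was -1.30 (-0.37 in batch 1 and -1.46 in batch 2). Otx2, a homeobox factor of the epiblast and later of the forebrain, had signals of 60.7, 161, 39.5 and 4.7 on GFP-positive arrays and 463, 1517, 186 and 305 on GFP-negative arrays. The fractions did not overlap, and the GFP-positive array of day 6 batch 2 was near the bottom of the scale. Otx2 fell by 3.20 ± 0.37 (adjusted p = 0.0117), which was 9.18-fold, the largest decrease among called genes. Fgf5, the growth factor of the primed epiblast, had signals of 10.6, 34.1, 4.2 and 1.0 on GFP-positive arrays and 128, 538, 25.0 and 59.1 on GFP-negative arrays. It fell by 2.82 ± 0.45 (adjusted p = 0.0245). The members that did not pass included Pou3f1, also known as Oct6, at -1.34 ± 0.26 (adjusted p = 0.0503), whose fractions did not overlap, and Foxd3 at -1.33 ± 0.34 (adjusted p = 0.13). Of the list, 2 fell without the pair as a block, 3 without the day 5 pair of batch 1, 0 without the day 5 pair of batch 2 (against 867 genes of all kinds at an unadjusted p under 0.05 in limma) and 1 without either day 6 pair, with medians between -1.63 and -0.68. Fgf5 lost its call with each of the 4 pairs left out and without the block (adjusted p = 0.0876). Pou3f1 passed without the pair as a block (adjusted p = 0.0418, limma). Cdh1, the cadherin of epithelia, differed by -1.51 ± 0.47 (adjusted p = 0.226) and Epcam, an epithelial adhesion molecule, by -1.30 ± 0.40 (adjusted p = 0.215), with the opposite sign on day 6 of batch 1 in both.

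The ligand Nodal and 4 secreted inhibitors of Nodal, activin or BMP fell, while Lefty2 and Bmper, also secreted inhibitors on the lists, did not pass (named after their values were seen). Nodal had signals of 29.5, 47.7, 26.5 and 23.4 on GFP-positive arrays and 120.4, 485, 52.6 and 61.9 on GFP-negative arrays. All GFP-negative arrays were above all GFP-positive arrays, by a small margin on day 6. Nodal fell by 1.75 ± 0.23 (adjusted p = 0.0158). Lefty1, an inhibitor of Nodal that Nodal itself induces, had signals of 43.9, 37.6, 60.2 and 30.2 on GFP-positive arrays and 174, 338, 109 and 65.4 on GFP-negative arrays. The fractions did not overlap, and Lefty1 fell by 1.63 ± 0.26 (adjusted p = 0.0246). Cer1, an inhibitor of Nodal, BMP and WNT, had signals of 11.7, 26.8, 6.2 and 1.4 on GFP-positive arrays and 59.6, 658, 21.9 and 70.9 on GFP-negative arrays. It was highest in the GFP-negative array of day 5 batch 2 and fell by 2.63 ± 0.46 (adjusted p = 0.0354). Fst, which binds activin, fell by 1.92 ± 0.28 (adjusted p = 0.0165) and Chrd, which binds BMP, by 1.62 ± 0.29 (adjusted p = 0.0405). Chrd reached the lowest signal for testing on GFP-negative arrays alone, with GFP-positive signals of at most 14.9. Cer1, Fst and Chrd were the 3 lower genes among 18 tested members of a list of 20 Nodal, BMP and TGF-beta genes, beside 0.359% of all tested genes. None of that list rose, 15 did not pass, and its median was 0.18 (0.09 in batch 1 and -0.01 in batch 2). Without the pair as a block 0 of the list passed in limma, against 749 genes of all kinds at an unadjusted p under 0.05, and neither Nodal (adjusted p = 0.191) nor Lefty1 (adjusted p = 0.157) did. The list had 1 call without the day 5 pair of batch 1 and 0 without each of the other 3 pairs. Bmp2, a ligand of heart induction, differed by 0.81 ± 0.16 (adjusted p = 0.0616). Among 18 tested members of a list of 20 WNT and FGF genes 0 passed in limma, with a median of -0.12, Rspo3, an enhancer of WNT signals, at 0.83 ± 0.16 (adjusted p = 0.054) and Sfrp1, a secreted WNT inhibitor, at -1.04 ± 0.23 (adjusted p = 0.0769). With the 8 arrays of days 5 and 6 alone 2 members were higher, and with equal array medians 2 were higher and 1 lower.

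Streak and nascent mesoderm genes had a median of -0.38 over 16 tested members of a list of 20 (-0.51 in batch 1 and -0.37 in batch 2), with 0 past the threshold in limma. With equal array medians 1 member was lower. Mesp1, the factor of the first heart mesoderm, had signals of 37.3, 1527, 24.3 and 82.1 on GFP-positive arrays and 112, 2463, 37.2 and 186 on GFP-negative arrays. Both arrays of day 5 batch 2 were far above the other 6. Eomes, a T-box factor of the streak, was also highest in that pair, with 2226 in GFP-positive and 1867 in GFP-negative cells. Their differences were -0.93 ± 0.24 (adjusted p = 0.141) and -0.92 ± 0.39 (adjusted p = 0.398). Gsc, another member of the list, came nearer to the threshold, at -1.27 (adjusted p = 0.0579, limma). In 4 of 4 pairs 3 members were lower, beside 12.0% of all tested genes, and 0 were higher.

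Several lower genes belonged to none of these groups. Cntnap2, a neuronal adhesion protein, had signals of 40.0, 50.6, 22.5 and 35 on GFP-positive arrays and 176, 226, 103 and 193 on GFP-negative arrays. The fractions were well apart in every pair. Cntnap2 fell by 2.04 ± 0.17 (adjusted p = 0.00299), and it passed without each of the 4 pairs in turn and without the pair as a block (adjusted p = 0.0114). It was the 1 lower gene among 8 tested members of a list of 16 neuroectoderm genes, with 7 not past the threshold, a median of -0.62, Sox3 at -1.06 ± 0.26 (adjusted p = 0.119) and Hesx1 at -1.21 ± 0.34 (adjusted p = 0.18). Pim2, a survival kinase, was the 1 lower gene of 14 tested in a list of the LIF and STAT3 pathway, with 1.66 ± 0.24 (adjusted p = 0.0165). Its signals were 47.8, 57.1, 71.4 and 47.6 on GFP-positive arrays and 243, 754, 71.5 and 93.2 on GFP-negative arrays. The difference was -2.88 ± 0.34 on day 5 and -0.44 ± 0.34 on day 6, with almost none in the day 6 pair of batch 1. Of all tested genes 0.359% fell. In the same list the receptor Lifr differed by 0.89 ± 0.21 (adjusted p = 0.0985) and Stat3 by 0.61 ± 0.13 (adjusted p = 0.066), and the median was 0.17. Trh, the precursor of thyrotropin-releasing hormone, fell by 2.64 ± 0.32 (adjusted p = 0.0126), Slc27a2, a fatty acid transporter, by 2.09 ± 0.33 (adjusted p = 0.0245), Foxd4, a forkhead factor, by 2.03 ± 0.29 (adjusted p = 0.0161) and Prss2, a trypsinogen, by 1.96 ± 0.35 (adjusted p = 0.0405). In all, 26 of the 43 lower genes were in no list. Among these, chosen after their values were seen, Fzd5, a WNT receptor, fell by 1.63 ± 0.23 (adjusted p = 0.0161), Sp8, a zinc finger factor, by 1.89 ± 0.34 (adjusted p = 0.0413) and Dnd1, an RNA-binding protein of germ cells, by 1.10 ± 0.18 (adjusted p = 0.0246).

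Transcription factors that found vessels and blood were mostly higher in GFP-positive cells. Of the 18 members of the list, all tested, 10 rose, 0 fell and 8 did not pass, beside 0.434% of all tested genes that rose. The median was 0.98 (0.83 in batch 1 and 1.09 in batch 2). Of the 18, 14 were higher in 4 of 4 pairs, beside 9.76% of all tested genes, and 1 was lower in 4 of 4 pairs, beside 12.0%. Differences were below 0 for 2 of the 18, the lowest at -0.76. Etv2, the ETS factor that starts the vessel and blood program, had signals of 589.5, 2420, 308 and 900.5 on GFP-positive arrays and 291, 959.8, 217 and 423 on GFP-negative arrays. Levels differed more between days and batches than between fractions, and each pair had the higher value in GFP-positive cells. Etv2 rose by 0.97 ± 0.14 (adjusted p = 0.0167). Erg, an ETS factor of endothelium, had signals of 384, 46.9, 452 and 318 on GFP-positive arrays and 121, 3.7, 123 and 118 on GFP-negative arrays. In day 5 batch 2 it was near the bottom of the scale in GFP-negative cells and below the other GFP-negative arrays even in GFP-positive cells. Erg rose by 1.79 ± 0.18 (adjusted p = 0.0058).

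Fli1, another ETS factor of both lineages, had signals of 174, 75.4, 176 and 185 on GFP-positive arrays and 83.1, 18.5, 67.0 and 80.1 on GFP-negative arrays. It was lowest in the day 5 pair of batch 2 in both fractions and rose by 1.29 ± 0.19 (adjusted p = 0.0165). Ets1 had signals of 1037, 640.5, 1208 and 1191 on GFP-positive arrays and 511, 292, 477 and 567 on GFP-negative arrays. Its fractions did not overlap, and it rose by 1.13 ± 0.14 (adjusted p = 0.0126). Ets2 rose by 1.15 ± 0.12 (adjusted p = 0.0058) and Elk3, an ETS repressor of vessels, by 1.39 ± 0.20 (adjusted p = 0.0165). Sox7, a Sox factor of early endothelium and blood, had signals of 386, 285, 335 and 454 on GFP-positive arrays and 131, 74.4, 103 and 232 on GFP-negative arrays. Its fractions did not overlap either, and it rose by 1.48 ± 0.21 (adjusted p = 0.0165). Sox18, its relative in vessels, rose by 1.26 ± 0.19 (adjusted p = 0.0182), Gata2, a factor of blood and endothelial progenitors, by 0.99 ± 0.13 (adjusted p = 0.0127) and Hhex, a homeobox factor of blood, vessels and liver, by 0.70 ± 0.13 (adjusted p = 0.0413). Lmo2 and Tal1, which form 1 complex in blood and vessel progenitors, did not pass, with differences of 1.13 ± 0.22 (adjusted p = 0.0561) and 0.84 ± 0.20 (adjusted p = 0.106), and neither did Runx1, the factor of definitive blood, at 0.95 ± 0.29 (adjusted p = 0.212). None of the 10 passed without the pair as a block, and without 1 pair at a time between 0 and 7 of the list passed, with the lowest count without the day 6 pair of batch 1, while the list median stayed between 0.85 and 1.07.

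Receptors and other proteins of endothelium formed the second raised group. Of 23 tested members of a list of 24, 8 rose, 0 fell and 15 did not pass, beside 0.434% of all tested genes that rose. All 23 had positive differences, and 18 were higher in 4 of 4 pairs, beside 9.76% of all tested genes. The median was 1.08 (1.37 in batch 1 and 0.78 in batch 2). Kdr, the main VEGF receptor and a marker of the mesoderm that yields heart and vessels, had signals of 1179, 3145, 1152 and 1352 on GFP-positive arrays and 542, 843, 494 and 780 on GFP-negative arrays. All GFP-positive arrays were above all GFP-negative arrays, with the highest value in day 5 batch 2. Kdr rose by 1.25 ± 0.17 (adjusted p = 0.0158). Tek, the angiopoietin receptor Tie2, had signals of 705, 85, 880.2 and 572 on GFP-positive arrays and 218, 24.4, 329 and 293 on GFP-negative arrays. The day 5 pair of batch 2 was far below the others, so the fractions overlapped, and the differences of the 4 pairs lay close together. Tek rose by 1.39 ± 0.12 (adjusted p = 0.00299) and also passed without each of the 4 pairs in turn, but not without the pair as a block (adjusted p = 0.785).

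Flt4, the VEGF-C receptor, had signals of 174, 101, 123 and 104 on GFP-positive arrays and 66.3, 40.2, 55.7 and 58.4 on GFP-negative arrays. The fractions did not overlap, and Flt4 rose by 1.08 ± 0.20 (adjusted p = 0.0492). Calcrl, which forms part of the adrenomedullin receptor, had signals of 492, 108, 849 and 453 on GFP-positive arrays and 235, 28.8, 108 and 216 on GFP-negative arrays. It rose by 1.67 ± 0.27 (adjusted p = 0.0254). Mmrn2, a matrix protein of endothelium, rose by 1.66 ± 0.30 (adjusted p = 0.0413), Pcdh12, an endothelial protocadherin, by 1.39 ± 0.21 (adjusted p = 0.0172), Plvap, which builds the diaphragms of endothelial pores, by 1.38 ± 0.24 (adjusted p = 0.0363) and Egfl7, a secreted factor of vessels, by 0.83 ± 0.11 (adjusted p = 0.0161). Among members that did not pass, Icam2, an adhesion molecule, differed by 1.51 ± 0.33 (adjusted p = 0.0757), Cdh5, the junction protein VE-cadherin, by 1.09 ± 0.25 (adjusted p = 0.0978) and Pecam1, or CD31, by 0.92 ± 0.21 (adjusted p = 0.099). None of the 8 genes passed without the pair as a block, and without 1 pair at a time 1 or 2 of the list passed, with 1 without the day 5 pair of batch 2 and 1 without the day 6 pair of batch 1. With equal array medians 18 of the list passed. The summed signal of 7 endothelial markers lay between 2436 and 3311 in the GFP-positive arrays and between 925 and 1274 in the GFP-negative arrays, and did not overlap with Kdr included. Without Kdr the sum was 1382, 166, 1825 and 1084 on GFP-positive arrays and 407, 82.3, 617 and 494 on GFP-negative arrays. The fractions then overlapped through the low day 5 pair of batch 2, and the GFP-positive array was higher in 4 of 4 pairs.

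Promoters of 3 of the raised genes are shown because each holds the ETS motif CAGGAAG on either strand, the letters that factors such as Etv2, Erg and Fli1 are known to bind. Capitals mark this motif and any Sox motif CATTGT or GATA motif AGATAA. The windows are Erg at chr16:95459299-95459598 on the minus strand, Calcrl at chr2:84425217-84425516 on the minus strand and Egfl7 at chr2:26583615-26583914 on the plus strand.
Erg: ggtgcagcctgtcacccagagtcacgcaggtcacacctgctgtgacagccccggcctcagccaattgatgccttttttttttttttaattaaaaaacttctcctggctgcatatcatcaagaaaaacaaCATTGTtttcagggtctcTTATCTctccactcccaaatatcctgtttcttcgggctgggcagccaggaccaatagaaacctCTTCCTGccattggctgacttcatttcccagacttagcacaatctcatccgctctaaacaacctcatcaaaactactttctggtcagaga
Calcrl: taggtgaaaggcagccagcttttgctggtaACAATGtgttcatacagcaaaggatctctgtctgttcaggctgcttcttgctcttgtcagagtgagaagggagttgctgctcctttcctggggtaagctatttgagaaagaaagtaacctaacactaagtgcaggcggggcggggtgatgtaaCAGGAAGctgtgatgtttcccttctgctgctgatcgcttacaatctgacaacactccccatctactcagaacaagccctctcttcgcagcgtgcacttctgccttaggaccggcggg
Egfl7: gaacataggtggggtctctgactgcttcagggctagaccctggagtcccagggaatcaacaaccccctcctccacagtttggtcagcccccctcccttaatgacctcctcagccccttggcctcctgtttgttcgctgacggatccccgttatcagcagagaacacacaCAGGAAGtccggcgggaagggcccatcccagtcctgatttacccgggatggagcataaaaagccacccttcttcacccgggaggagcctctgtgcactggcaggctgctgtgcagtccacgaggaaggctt
The Erg window held a Sox, a GATA and an ETS motif, beginning at -121, -103 and -40 relative to the start site, and it is 1 of 3 windows of that gene, the other 2 of which held none of the 4 motifs. The ETS motif began at -67 in Calcrl, which also held a Sox motif at -220, and at -81 in this Egfl7 window. Of the 38 higher genes with a promoter 13 held the ETS motif, or 34.2%, among them Elk3, Hhex, Rasip1 and Myzap. It was found in 10.8% of the 37 lower genes with a promoter, 14.4% of tested genes and 14.8% of all genes with one. Counted by single windows, it was in 13.3%. The GATA motif was found in 13.2% of the higher genes, 2.7% of the lower genes, 7.63% of tested genes and 12.7% of all genes with a promoter. Higher genes had 1.34 windows each. Etv2 held none of the 4 motifs in its window, which says only that these letters are not there.

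Other raised genes included several known from vessels that were in neither list. Hapln1, a link protein of hyaluronan in the jelly of the early heart, had signals of 828, 96.4, 423 and 750.1 on GFP-positive arrays and 228, 20.7, 124 and 308 on GFP-negative arrays. Each pair had the higher value in GFP-positive cells, and Hapln1 rose by 1.68 ± 0.20 (adjusted p = 0.0126). It and Plxnd1, a semaphorin receptor of vessels (1.22 ± 0.15 (adjusted p = 0.0126)), were the 2 raised genes among the 13 members of a list of cardiac jelly and guidance genes, with 11 not past the threshold and a median of 0.27. Of all tested genes 0.434% rose. Grap, an adaptor protein of receptor signals, had signals of 40.7, 9.8, 36.0 and 34.1 on GFP-positive arrays and 8.3, 1.1, 1.3 and 1.1 on GFP-negative arrays. It was near the bottom of the scale in GFP-negative cells, and only GFP-positive arrays reached the lowest signal for testing. The size of its rise by 1.87 ± 0.26 (adjusted p = 0.0161) was thus set by the offset. The rise was 3.15 at an offset of 1 and 1.01 at the median signal. St8sia1, a sialyltransferase of gangliosides, rose by 1.63 ± 0.28 (adjusted p = 0.0352), Rasip1, a Ras-interacting protein of vessel lumens, by 1.37 ± 0.25 (adjusted p = 0.0413), Myzap, a protein of cardiac and endothelial junctions, by 1.42 ± 0.21 (adjusted p = 0.017), Fam43a by 1.34 ± 0.18 (adjusted p = 0.0158) and Npl, an enzyme of sialic acid breakdown, by 1.33 ± 0.16 (adjusted p = 0.0126). In all, 30 of the 52 higher genes were in no list. Among these, chosen after their values were seen, Gja4, the connexin of arteries, rose by 1.11 ± 0.16 (adjusted p = 0.0167) and Fgd5, an endothelial exchange factor, by 0.97 ± 0.14 (adjusted p = 0.0161). Of 17 tested members of a list of VEGF, angiopoietin, apelin and Notch signals 0 passed in limma, with a median of 0.03, Notch1 at 0.87 ± 0.22 (adjusted p = 0.13) without overlap of the fractions, and Apln, the ligand of the apelin receptor, at -0.77 ± 0.20 (adjusted p = 0.143). With equal array medians 1 member was higher.

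**Figure D2:**
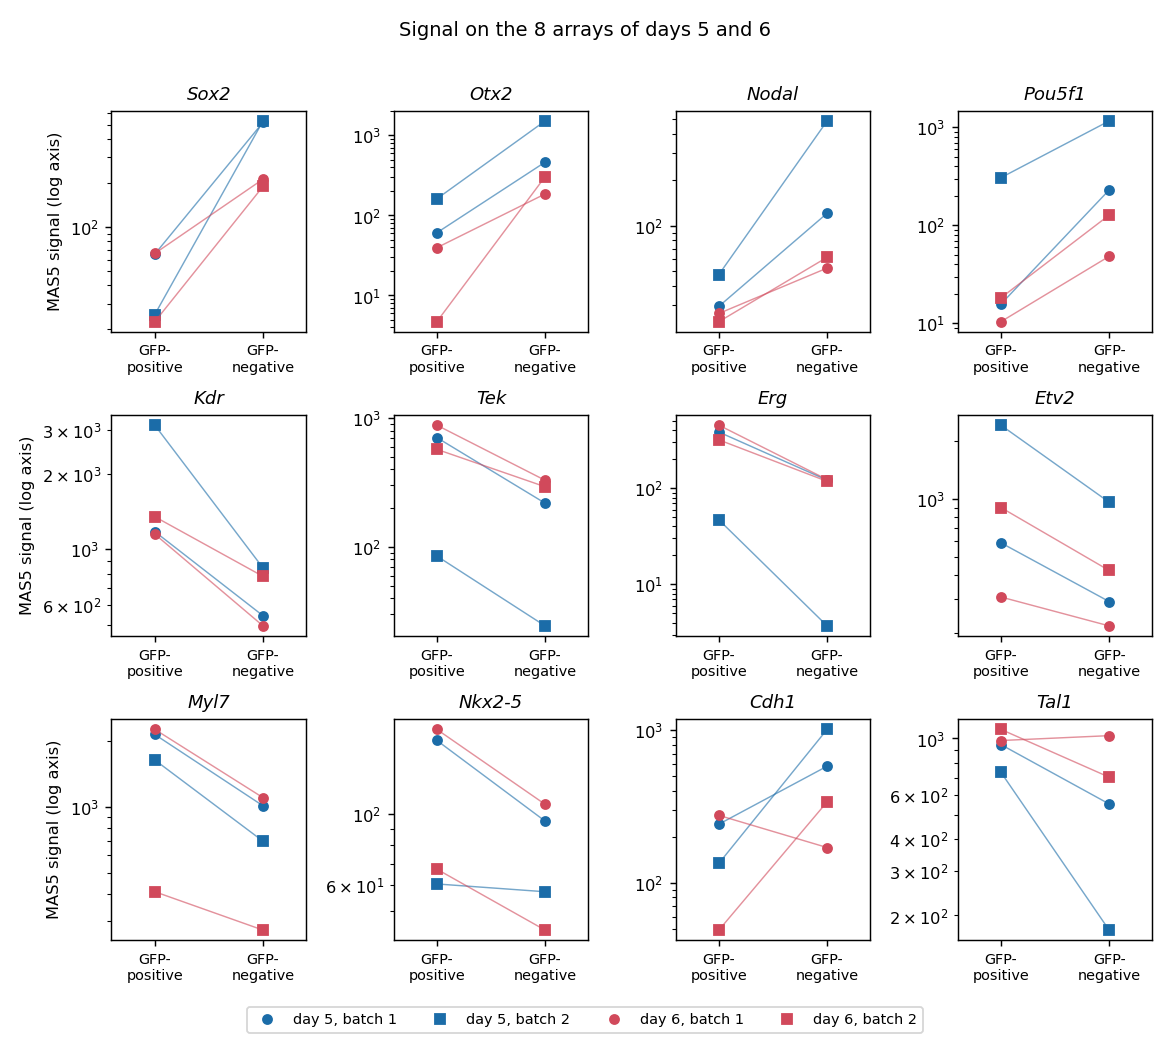
MAS5 signal on a log axis of 12 genes in the GFP-positive (left) and GFP-negative (right) array of each pair, joined by a line, with colour for the day and marker shape for the batch. Sox2, Otx2, Nodal and Kdr separate the fractions without overlap, Tek, Erg, Etv2 and Myl7 change within pairs while the pairs differ in level, and Cdh1 and Tal1 have 1 pair of the opposite direction.

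Among heart genes Myl7 and Tnnt2 of the sarcomere rose, and Nkx2-5 did not pass. Nkx2-5 itself, whose enhancer drove the reporter, had signals of 170, 60.6, 184 and 67.4 on GFP-positive arrays and 95.2, 57.3, 107 and 43.5 on GFP-negative arrays. In all 4 pairs the GFP-positive array was higher, by little on day 5 of batch 2, and Nkx2-5 differed by 0.54 ± 0.16 (adjusted p = 0.207), which did not pass. Of 16 tested members of a list of 18 cardiac transcription factors 0 passed in limma, with a median of 0.25 (0.19 in batch 1 and 0.13 in batch 2). With quantile normalization, equal array medians or array weights 1 member was higher. Myocd, a coactivator of serum response factor in heart and smooth muscle, was nearest, at 1.04 ± 0.20 (adjusted p = 0.0539). Gata4 differed by 0.23 ± 0.23 (adjusted p = 0.784) and Isl1, a factor of the second heart field, by -0.68 ± 0.31 (adjusted p = 0.457).

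Of 20 tested members of a list of 21 sarcomere genes, 2 rose, 0 fell and 18 did not pass, beside 0.434% of all tested genes that rose. The median was 0.77, with 1.16 in batch 1 and 0.17 in batch 2. Myl7, the atrial myosin light chain, had signals of 2144, 1639, 2263 and 409 on GFP-positive arrays and 1011, 696, 1102 and 273 on GFP-negative arrays. The day 6 pair of batch 2 was lowest in both fractions, and Myl7 rose by 0.98 ± 0.17 (adjusted p = 0.0352). Tnnt2, cardiac troponin T, had signals of 2482, 5.9, 2733 and 328 on GFP-positive arrays and 964, 1.1, 799.6 and 189.8 on GFP-negative arrays. In day 5 batch 2 it was near the bottom of the scale in both fractions, while batch 1 was high on both days. Tnnt2 rose by 1.14 ± 0.22 (adjusted p = 0.0497), just inside the threshold. Neither passed without the pair as a block or without any of the 4 pairs, and the 1 call of the list without the day 5 pair of batch 1 was another gene. With equal array medians 9 of the list passed. Myh6, the alpha myosin heavy chain, had signals of 729.5, 19.5, 1078 and 37.3 on GFP-positive arrays and 188, 25.0, 298 and 25.9 on GFP-negative arrays. It was bright in batch 1 and dim in batch 2, where day 5 had the opposite direction, and it differed by 0.98 ± 0.35 (adjusted p = 0.304). Mybpc3, a thick filament protein, differed by 1.13 ± 0.23 (adjusted p = 0.0688), Myl4, another atrial light chain, by 0.82 ± 0.19 (adjusted p = 0.0958) and Actc1, cardiac actin, by 0.74 ± 0.19 (adjusted p = 0.126). The summed signal of 10 cardiac markers was 10074, 2703, 12415 and 1447 on GFP-positive arrays and 4593, 1605, 5337 and 1218 on GFP-negative arrays. Each pair was higher in GFP-positive cells, and batch 1 was higher than batch 2 in both fractions. This sum leans on bright sarcomere genes. On GFP-positive arrays Actc1 reached 4280, Tnnt2 2733 and Myl7 2263, against 184 for Nkx2-5 and 244 for Isl1. It was not repeated without the bright genes.

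Lists of other tissues gave 0 calls in limma at the threshold, against 1377 genes of all kinds at an unadjusted p under 0.05. With equal array medians, where 186 genes of all kinds were higher and 87 lower, some of these lists had calls. The endoderm list had 1 higher and 2 lower, the epithelial-mesenchymal list 1 higher and 3 lower and the fibroblast list 2 higher. The Hox and stress lists had 1 higher each, and the germ cell list 1 lower. Other alternatives gave single calls in some of them. The 11 tested red cell genes had a median of 0.11 and the 11 tested genes of macrophages, platelets and leukocytes a median of -0.13. Summed leukocyte markers were at most 418 in GFP-positive and 428 in GFP-negative arrays, with Ptprc, or CD45, at most at 52.7 and 67.0. The 13 tested endoderm genes had a median of 0.12, which split into 0.80 in batch 1 and -0.27 in batch 2. Ttr, a carrier protein of visceral endoderm, had signals of 2423, 16.1, 3016 and 1379 on GFP-positive arrays and 1618, 18.7, 837 and 1199.7 on GFP-negative arrays. It was bright in 3 pairs and dim in day 5 batch 2, and differed by 0.62 ± 0.23 (adjusted p = 0.319). Foxa2, a forkhead factor of the anterior streak and endoderm, went the other way in the mean, at -1.90 ± 0.39 (adjusted p = 0.0622). Its signals were 106, 41.0, 153 and 68.4 on GFP-positive arrays and 416, 765, 139 and 256 on GFP-negative arrays, with almost no difference on day 6 of batch 1.

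The 16 genes of epithelial-mesenchymal change had a median of -0.44 (-0.17 in batch 1 and -0.83 in batch 2). Of these, Krt19, a keratin of simple epithelia, differed by -1.06 ± 0.22 (adjusted p = 0.071), Esrp1, a splicing factor of epithelia, by -1.65 ± 0.41 (adjusted p = 0.127) and Zeb1, a repressor of Cdh1, by 0.71 ± 0.17 (adjusted p = 0.115). Cell cycle genes had a median of 0.05 over 20 tested, genes of dissociation stress -0.05 over 13, with Atf3, a stress-response factor, at 0.74 ± 0.15 (adjusted p = 0.0688), and DNA and histone methylation genes -0.02 over 14. Fibroblast and matrix genes had -0.14 over 15, smooth muscle and epicardium -0.01 over 9, and imprinted growth genes 0.11 over 12. Glucose and fatty acid genes had -0.11 over 16 and calcium handling genes -0.05 over 6. Hox genes had -0.11 over 15, with Hoxb5 at 1.08 ± 0.23 (adjusted p = 0.0689) and Hoxa9 at -0.94 ± 0.25 (adjusted p = 0.146), and germ cell and trophoblast genes had -0.57 over 9. The summed signal of 6 fibroblast and feeder markers lay between 97.5 and 1732 in GFP-positive and between 97.3 and 3017 in GFP-negative arrays, and 2 of 4 pairs had the higher sum in GFP-positive cells.

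**Figure D3:**
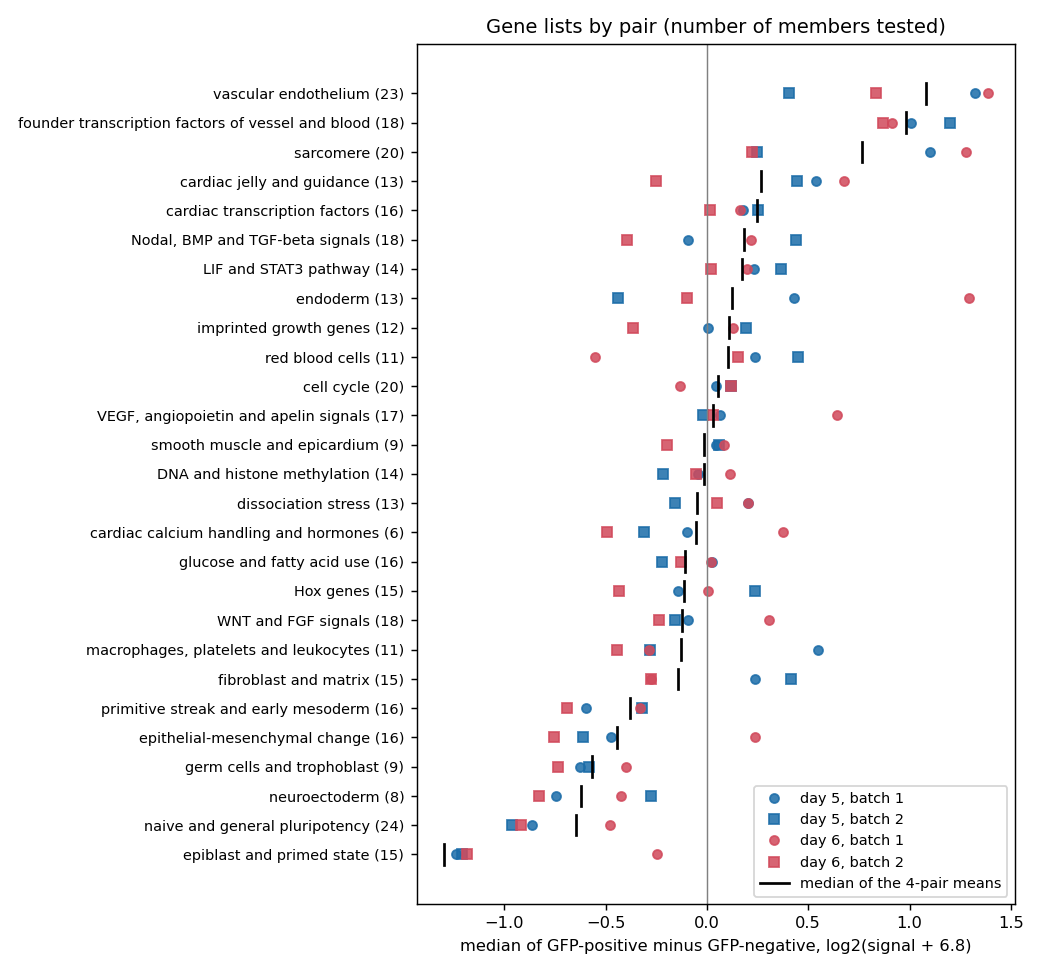
Median difference of each gene list in each of the 4 pairs (GFP-positive minus GFP-negative, log2(signal + 6.8), horizontal axis), with a tick at the median over the 4-pair means and the number of tested members in brackets. The endothelial and founder factor lists lie above 0 in every pair and the pluripotency and epiblast lists below 0 in every pair, while the sarcomere list is at 1.10 and 1.28 in the batch 1 pairs and at 0.25 and 0.22 in the batch 2 pairs.

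The days were also compared on their own, with 2 pairs each. On day 5, 6 genes passed, or 0.0501% of those tested. Erg (1.98) and Tek (1.61) were higher, and Sox2 (-3.46), Pim2 (-2.88), Nodal (-2.49) and Cntnap2 (-1.99) lower. All 6 also passed over both days. Day 5 had 0 calls without the pair as a block and 0 without batch 2, and 28 without batch 1, both of which leave 1 array per fraction whose spread is taken from the other groups. It had 35 with the offset at the median signal, 87 with equal array medians and 94 with array weights. On day 6, 0 genes passed in limma, against 616 at an unadjusted p under 0.05, and 26 passed with equal array medians. The change of the difference between the days had 0 calls in limma as well, beside 303 genes with an unadjusted p under 0.05, and 2 genes passed without the day 5 pair of batch 1. Over the 43 lower genes the median difference was -2.10 on day 5 and -1.21 on day 6, and for 38 of them the smallest of the 4 differences was in the day 6 pair of batch 1. Over the 52 higher genes it was 1.15 on day 5 and 1.19 on day 6. These medians describe genes chosen on the mean of the same differences.

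Batches were compared in the same way. In limma 0 genes differed in their fraction difference between batch 1 and batch 2 on days 5 and 6, against 884 at an unadjusted p under 0.05, and 19 did without the day 6 pair of batch 2. The lower genes had a median difference of -1.32 in batch 1 and -1.96 in batch 2, and the higher genes 1.20 in batch 1 and 1.04 in batch 2.

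The same fractions on days 7 and 8 showed where the early pattern differed from the later one. The fraction difference of days 7 and 8 minus that of days 5 and 6 passed for 263 genes, or 2.2% of those tested, of which 228 were positive (1.9%) and 35 negative (0.292%). These calls were lost (0 genes) without the pair as a block, with batch in its place, without the variance trend, without the day 5 pair of batch 2 and without the day 6 pair of batch 2, and without the day 6 pair of batch 1 there were 537. Against 2370 genes at an unadjusted p under 0.05 with the pair as a block, 1364 were so without it. With equal array medians 281 were positive and 248 negative, and with quantile normalization 300 and 111. Of the 228 positive genes 167 had a difference below 0 on days 5 and 6 and above 0 on days 7 and 8.

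Epithelial genes were among them. Cdh1 had signals of 491, 142, 664 and 629 in GFP-positive cells of days 7 and 8 (day 7 batch 1, day 7 batch 2, day 8 batch 1, day 8 batch 2), and 155, 109, 175 and 74.0 in GFP-negative cells. On days 5 and 6 its signals were 241, 134, 276 and 48.9 on GFP-positive arrays and 578, 1007, 169.7 and 338 on GFP-negative arrays. Every later pair was higher in GFP-positive cells, while 3 of 4 earlier pairs were lower. The difference of Cdh1 changed by 3.22 ± 0.67 (adjusted p = 0.0458), that of Epcam by 3.29 ± 0.56 (adjusted p = 0.0287), that of Cldn6, a tight junction protein of early epithelia, by 3.36 ± 0.63 (adjusted p = 0.037) and that of Foxa2 by 3.23 ± 0.55 (adjusted p = 0.0287). Cpn1, a carboxypeptidase subunit made in liver, had the largest positive change, at 3.61 ± 0.51 (adjusted p = 0.0264).

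Of the 43 genes lower on days 5 and 6, 12 changed, each toward 0 or past it. The median difference over all 43 was -0.24 on days 7 and 8. The 43 were chosen for low early differences and the change reuses those values, so a move toward 0 is favoured by the choice. Otx2 changed by 2.95 ± 0.52 (adjusted p = 0.0314), Sox2 by 2.57 ± 0.39 (adjusted p = 0.0264), Nodal by 2.04 ± 0.33 (adjusted p = 0.0264) and Eras by 2.87 ± 0.59 (adjusted p = 0.0456). Sox2 had signals of 175, 51.1, 308 and 242 on GFP-positive arrays of days 7 and 8 and 224, 123, 372 and 135 on GFP-negative arrays. The later fractions overlapped, and the later GFP-positive values were mostly above the earlier ones. Dppa5a, which differed by -2.21 on days 5 and 6 and by -2.18 on days 7 and 8, changed by 0.02 ± 0.43 (adjusted p = 0.984), which did not pass. Of the 52 higher genes 51 kept a positive difference on days 7 and 8, with a median of 1.38, and 2 passed the test of the change, Gja4 at 1.27 ± 0.23 (adjusted p = 0.0328) and Inka1, an inhibitor of the kinase Pak4, at -0.96. Mmrn2 differed by 3.58 on days 7 and 8 and its change was 1.91 ± 0.43 (adjusted p = 0.0524), which did not pass.

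The negative changes included blood genes. Fermt3, an integrin activator of blood cells, changed by -1.71 ± 0.25 (adjusted p = 0.0264), Lmo2 by -1.63 ± 0.32 (adjusted p = 0.0398), Tal1 by -1.41 ± 0.28 (adjusted p = 0.0428) and Nfe2, a factor of red cells and platelets, by -1.55 ± 0.26 (adjusted p = 0.0287). Tal1 had signals of 584, 953, 437 and 527 on GFP-positive arrays of days 7 and 8 and 808, 1029, 666 and 1131 on GFP-negative arrays. On days 5 and 6 they were 946, 736, 982 and 1086 on GFP-positive arrays and 551, 175, 1026 and 703 on GFP-negative arrays. Tal1 was lower in GFP-positive cells in every later pair and higher in 3 of 4 earlier pairs. Nkx2-5 changed by 1.06 ± 0.23 (adjusted p = 0.0489), with 292, 216, 249 and 323 on GFP-positive arrays of days 7 and 8 and 106, 75.5, 76.3 and 79.4 on GFP-negative arrays. The later fractions did not overlap.

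**Figure D4:**
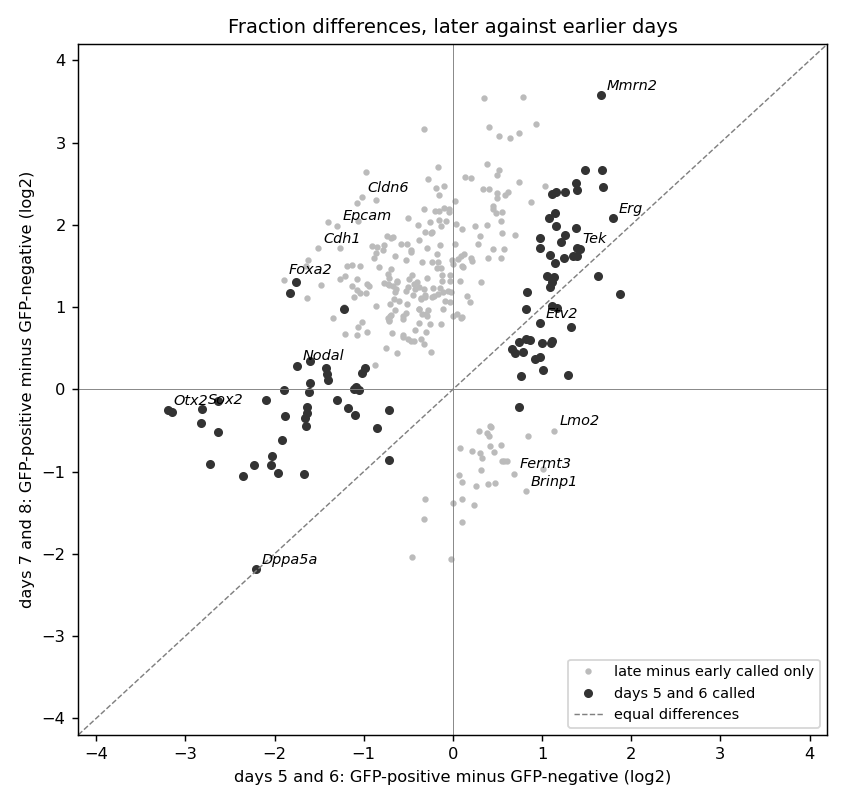
Difference between the fractions on days 7 and 8 (vertical axis) against that on days 5 and 6 (horizontal axis), both GFP-positive minus GFP-negative on the log2 scale, for genes called on days 5 and 6 (dark) and genes called for the change alone (grey), with a dashed line of equal differences. Raised early genes stay above 0 with 1 exception of 52, 30 of the 43 lowered early genes stay below 0, with Dppa5a on the line of equal differences, and the epithelial genes Cdh1, Epcam and Cldn6 cross from below to above 0.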

How the data were processed

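RNA of sorted cells was amplified in 2 rounds and hybridised to Affymetrix mouse arrays, per the labels' protocols. The authors deposited linear signal intensity values of 45101 probe sets, made with MAS5 in GCOS 1.4 per the submitters' processing notes; each array's trimmed mean is 150.0, so the intensities were scaled to a common mean before deposit. MAS5 uses mismatch probes, and dim values are noisy.

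Probe sets with 1 symbol (34945) were reduced to 18193 genes. Genes with a signal of at least 22.5 on at least 2 of the 8 arrays were tested (11977), as log2(signal + 6.8). limma 3.58.1 (R 4.3.3) was fitted on the 16 sorted arrays with the pair of day and batch as a block (8 pairs), a fraction difference per day, a variance trend and Benjamini-Hochberg adjustment, and every adjusted p in the text is from limma. Pairs come from the titles; the deviations of the 2 batches' arrays from their group means correlated between fractions with 0.698 on day 5, 0.445 on day 6, 0.376 on day 7 and -0.06 on day 8. In data simulated for the mean difference of days 5 and 6, 63.5% of 200 genes changed by 1 on the log2 scale were called among 11977 genes.

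Named genes were drawn from the 15 highest and 15 lowest called with 1 sign in 4 of 4 pairs, the 5 highest and lowest of each other comparison, and the lists. From each list up to 6 members by p and its first 3 members could be named, and Nkx2-5 and Myh6 always were. Not every gene that the rule allowed is named, and some lists have no named member. Some genes were named after their values were seen. The lists, rules and members were chosen with earlier results of these data known. Alternatives were no block, batch in place of the pair, other offsets, scalings, filters and probe sets, no trend, array weights, the 8 arrays alone and each pair left out. Figures were drawn with matplotlib 3.10.9.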

Additional observations from a re-analysis of the deposited data

Results flagged for a closer look

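Among 84 groups of 4 pair differences (57 genes and 27 list medians), 9 held a pair far from the other 3. By chance the rule flags about 1 in 20 independent groups. The genes were called on these same differences and all groups share the 4 pairs, so the 9 cannot be set against that rate. The day 6 pair of batch 1 was apart for Prdm14 (-1.03), Elk3 (1.83), Egfl7 (0.567), the epiblast list (-0.245) and the VEGF, angiopoietin and apelin list (0.642). The day 5 pair of batch 2 was apart for Pcdh12 (0.631) and the day 5 pair of batch 1 for the macrophage, platelet and leukocyte list (0.55). The day 6 pair of batch 2 was apart for Plxnd1 (0.678) and the smooth muscle and epicardium list (-0.199).

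List medians had opposite signs in both pairs of each batch for endoderm, with means of 0.864 in batch 1 and -0.271 in batch 2, and for glucose and fatty acid use, with 0.0226 in batch 1 and -0.174 in batch 2. Fibroblast and matrix genes had opposite signs on the days, with means of 0.326 on day 5 and -0.275 on day 6. These 3 differences were not tested.

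The fraction difference (GFP-positive minus GFP-negative) of days 7 and 8 minus that of days 5 and 6 passed limma's test for further named genes. It was positive for Cpn1 (3.61), the claudins Cldn9 (3.44), Cldn6 (3.36), Cldn7 (3.34) and Cldn3 (2.22), Epcam (3.29), Foxa2 (3.23), Foxa1 (2.75), Cdh1 (3.22), Esrp1 (3.16), Krt19 (1.82), the carrier proteins Apoa1 (2.43) and Ttr (1.78), and Nkx2-5 (1.06). Genes lower on days 5 and 6 with a positive change were Otx2 (2.95), Eras (2.87), Sox2 (2.57), Trh (2.12), Nodal (2.04), L1td1 (1.95) and Cntnap2 (1.12), and a raised gene with one was Gja4 (1.27). It was negative for Brinp1 (-2.06), Fermt3 (-1.71), Lmo2 (-1.63), Nfe2 (-1.55) and Tal1 (-1.41). None of these passed without the pair as a block.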

How the results depend on the processing

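The number of genes called on days 5 and 6 (95) was 13 without the pair as a block (12 of them among the 95), 16 with batch in its place, 273 with equal array medians, 40 without the variance trend and 162 with array weights, and between 6 and 55 with 1 pair left out. With the 8 arrays alone it was again 95, with 69 higher and 26 lower and 63 shared. On day 5 (6) it was 0 without the block, 3 with batch, 35 with the offset at the median, 87 with equal medians, 3 without a filter, 0 without the trend and 94 with array weights, and between 0 and 28 with 1 pair left out. On day 6 (0) it was 1 with batch and 26 with equal medians, and between 0 and 1 with 1 pair left out. The change between the days (0) had between 0 and 2 and that between batches (0) between 0 and 19 with 1 pair left out. Days 7 and 8 minus days 5 and 6 (263) had 0 without the block, 0 with batch, 131 with an offset of 1, 404 with the offset at the median, 411 with quantile normalization, 529 with equal medians, 123 without a filter and 0 without the trend, and between 0 and 537 with 1 pair left out. A filter over the 16 sorted arrays, added after seeing the data, gave 310. The causes were not tested. Equal medians moved the median difference of all genes to 0.15 on day 5 and to -0.26 for the later minus the earlier days. List medians changed sign by more than the spread between pairs for Hox genes with the filter on 4 of 8 arrays (0.188), neuroectoderm with the median of probe sets (0.00867), glucose use without the day 5 pair of batch 2 (0.062, against -0.178 without the day 5 pair of batch 1) and, within batch 1, smooth muscle (0.237), stress (0.165) and glucose use (0.107). Another 36 values of 13 lists changed sign within that spread, so 15 of the 27 lists had no stable sign, while the endothelial, founder factor, sarcomere, pluripotency and epiblast medians kept theirs. Of the values of single named genes under the alternatives, 478 no longer passed, 78 newly passed and 1851 were labelled as unchanged. The 1851 include values within each batch, which had no test and so no side of the threshold. Their label was fixed by its rule unless a called gene turned round, so they are no support. In the alternatives with a test 0 values turned round, and within a batch only called genes were checked for that. The 4 pairs limit the precision, and a dim gene's difference depends on the offset.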
